A study of Mus musculus with 6 samples.

Results

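Fc gamma receptors bind the constant part of IgG, and the genes described here are those receptors together with an adaptor gene, Tyrobp, and the kinase gene Syk. They were taken from the NanoString panel by symbol, as every gene whose symbol starts with Fcgr plus Tyrobp and Syk, which gave 6 of 754 measured genes: Fcgr1, Fcgr3, Fcgr4, Fcgr2b, Tyrobp and Syk. The adaptor gene Fcer1g and the IgG transport receptor gene Fcgrt had no entry under those symbols among the 754 measured genes.

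The activating receptors encoded by Fcgr1, Fcgr3 and Fcgr4 pass their signal through a shared adaptor chain, the Fc receptor gamma chain, whose tyrosine-based motif is phosphorylated by Src family kinases and then recruits the kinase Syk. The receptor encoded by Fcgr2b carries an inhibitory motif in its own tail and recruits lipid phosphatases that oppose this signal. Tyrobp (DAP12) is an adaptor of the same kind as the gamma chain, used by TREM and other myeloid receptors, and it also leads to Syk. Macrophages use these receptors to engulf cells and particles coated with antibody, and the balance between activating and inhibitory receptors is known to set the response to immune complexes.

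The samples were total RNA of peritoneal macrophages from C57BL/6J mice bearing ID8 tumors, a mouse ovarian cancer line grown in the peritoneal cavity. Per the labels, the mice had carried tumors for 7 weeks and then received 2 intraperitoneal injections, on days 1 and 5, of either PBS (3 samples) or IRF5-NPs with 30 µg of mIRF5 mRNA per dose (3 samples). An IRF5-NP is a polymer particle coated with Di-mannose, which binds the mannose receptor CD206, and it delivers mRNA for the transcription factor IRF5. Cells from the peritoneal lavage were sorted by FACS for CD11b, which Itgam encodes, and for the macrophage surface antigen that Adgre1 encodes. The study's methods describe particles that also carry IKKβ mRNA, a larger dose and a shorter time of tumor growth than the labels do, so which regimen these samples received is not settled. All animals carried the tumor, and no group received particles with another mRNA, so an effect of the particle and one of its mRNA cannot be told apart.

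The values are normalized counts, the number of probe molecules counted per gene scaled by 1 factor per sample to housekeeping genes. Between 683472 and 1830318 counts were taken per sample. Compared over all genes by a chi-square test, PBS replicates 2 and 3 showed no difference beyond sampling noise (chi-square per degree of freedom 1.07, p = 0.0793), so their mean was counted as 1 sample, which left 2 PBS and 3 IRF5-NP samples in the tests. The replicates numbered 1 stood apart from the others of their group in several genes below, and values without them are given where they matter. No label says that the samples came from separate animals, so p-values measure the spread between these samples only. The 9 measured macrophage markers were above background in all 6 samples, with summed levels of 82303 to 97170 normalized counts with PBS and 61367 to 120792 with IRF5-NPs. The panel's probe for Irf5 itself differed by -0.03 on the log2 scale (adjusted p = 0.947 in limma), and whether this probe reads the delivered, codon-optimized mRNA was not tested.

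The 6 genes were abundant. Each was at least 17.2 times the background in every sample, where background means the negative control probes' mean with 2 SD added, and the smallest count worked back from any of their values was 525, for which the counting error would be 4.36%. These counts were inferred from the steps between values, and a second check of the steps did not accept them for the IRF5-NP samples. IRF5-NP replicate 3 had the highest background, 79.4 normalized counts, against 25.6 to 37.8 in the other samples. The probes of different genes bind with different efficiency, so levels are compared between samples and not between genes. Fcgr2b, Fcgr3 and Fcgr4 are closely related in sequence and lie near each other on mouse chromosome 1, and binding of one gene's probe to another's transcript was not tested.

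The promoters of the receptors are shown because the receptors did not share 1 pattern across the samples, and because interferon-gamma is a textbook inducer of activating Fc gamma receptors and the factor PU.1 a textbook driver of myeloid genes. The sequences are from RefSeq with the build GRCm38.p6 and were matched by symbol for 5 of the 6 genes. Each line holds the 250 bases before the annotated start, 5′ to 3′ on the gene's own strand. Capitals mark 3 motifs, chosen after the sequences had been seen and searched on both strands: TTCNNNGAA, the interferon-gamma activated site; GAAANNGAAA, the core of the interferon-stimulated response element bound by IRF factors; and GAGGAA, a PU.1 core, which reads TTCCTC on the other strand.
Fcgr1, chr3:96293970-96294219, minus strand: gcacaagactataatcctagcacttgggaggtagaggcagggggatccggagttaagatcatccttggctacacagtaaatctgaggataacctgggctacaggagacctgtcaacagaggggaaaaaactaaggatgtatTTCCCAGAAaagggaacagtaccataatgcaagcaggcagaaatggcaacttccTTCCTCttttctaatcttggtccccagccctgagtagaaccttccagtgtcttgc
Fcgr3, chr1:171059404-171059653, minus strand: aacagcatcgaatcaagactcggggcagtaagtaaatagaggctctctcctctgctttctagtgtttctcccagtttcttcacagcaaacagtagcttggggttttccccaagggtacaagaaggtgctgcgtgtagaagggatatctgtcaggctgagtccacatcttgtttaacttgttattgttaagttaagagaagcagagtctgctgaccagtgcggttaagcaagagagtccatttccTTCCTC
Fcgr4, chr1:171018676-171018925, plus strand: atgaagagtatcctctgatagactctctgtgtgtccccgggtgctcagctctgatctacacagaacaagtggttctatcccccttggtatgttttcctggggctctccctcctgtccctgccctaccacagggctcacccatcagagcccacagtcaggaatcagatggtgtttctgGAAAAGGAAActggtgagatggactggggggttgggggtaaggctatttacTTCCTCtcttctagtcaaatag
Fcgr2b, chr1:170976072-170976321, minus strand: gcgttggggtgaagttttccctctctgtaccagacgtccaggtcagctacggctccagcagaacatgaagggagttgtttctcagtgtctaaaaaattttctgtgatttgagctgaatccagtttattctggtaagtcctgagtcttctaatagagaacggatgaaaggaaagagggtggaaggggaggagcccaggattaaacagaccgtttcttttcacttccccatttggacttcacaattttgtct
The capitals show 3 different arrangements. The Fcgr1 promoter holds TTCCCAGAA from 109 to 101 bases before the start and TTCCTC from 55 to 50 bases before it. The Fcgr4 promoter holds GAAAAGGAAA from 73 to 64 bases before the start and TTCCTC from 22 to 17 bases before it. The Fcgr3 promoter holds TTCCTC alone, in the last 6 bases before the start shown (RefSeq lists another start 9 bases downstream), and none of the 3 motifs is in the Fcgr2b window. No 2 motifs overlap. Of all 32851 promoter windows of this length, 7.02% hold the interferon-gamma activated site, 2.98% the response element core and 23.3% the PU.1 core. These matches describe letters only, a missing match says only that these letters are not in the window, and no binding was measured here.

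Among the activating receptors, Fcgr1 and Fcgr4 were lower in every IRF5-NP sample than in any PBS sample, and Fcgr3 was not. Fcgr1 encodes the high-affinity receptor FcγRI. It was at 3871, 4975 and 4632 normalized counts in PBS replicates 1, 2 and 3, and at 1912, 2793 and 2495 in IRF5-NP replicates 1, 2 and 3. The groups did not overlap, with the highest IRF5-NP sample well below the lowest PBS sample. The PBS mean was 4336 ± 657 (SD, n = 2) and the IRF5-NP mean 2400.1 ± 448 (SD, n = 3). The log2 fold change of -0.86 (SE 0.25, 95% interval -1.44 to -0.29) did not pass the threshold of 0.05 in limma after Benjamini-Hochberg adjustment over all 754 genes (adjusted p = 0.0664).

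Fcgr4 encodes FcγRIV, the mouse receptor that binds IgG2a and IgG2b with intermediate affinity. It was at 11228, 10243 and 10152 normalized counts in PBS replicates 1, 2 and 3, which lay close together. In IRF5-NP replicates 1, 2 and 3 it was at 2925, 5917 and 5641. All IRF5-NP samples were lower than all PBS samples, and replicate 1 was the lowest of them by a wide margin. The means were 10713 ± 729 (SD, n = 2) and 4828 ± 1653 (SD, n = 3). The log2 fold change of -1.22 (SE 0.35, 95% interval -2.02 to -0.41) was the most negative of the 6 genes and did not pass either (adjusted p = 0.0656 in limma). Without IRF5-NP replicate 1 it was -0.89 and passed the threshold (adjusted p = 0.0465 in limma).

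Fcgr3 encodes FcγRIII, a low-affinity receptor for immune complexes. It was at 9797, 8544 and 8148 normalized counts in PBS replicates 1, 2 and 3, and at 5817, 10769 and 11969 in IRF5-NP replicates 1, 2 and 3. The PBS samples fell inside the range of the IRF5-NP samples, of which replicate 1 was low and the others high. The log2 fold change was 0.01 (SE 0.36, 95% interval -0.82 to 0.83, adjusted p = 0.993 in limma), an interval that reaches nearly down to the value fitted for Fcgr1. The sign of this difference depended on which sample was left out, from -0.19 without IRF5-NP replicate 3 to 0.33 without IRF5-NP replicate 1.

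The inhibitory receptor gene Fcgr2b was lower in every IRF5-NP sample than in any PBS sample, as Fcgr1 and Fcgr4 were. It was at 25145, 13139 and 12986 normalized counts in PBS replicates 1, 2 and 3, and at 7612, 8526 and 8526 in IRF5-NP replicates 1, 2 and 3. The groups did not overlap. The spread was large with PBS, where replicate 1 was far above the others, and small with IRF5-NPs. The means were 19104 ± 8544 (SD, n = 2) and 8221 ± 528 (SD, n = 3). The log2 fold change was -1.14 (SE 0.33, 95% interval -1.91 to -0.37, adjusted p = 0.0683 in limma). Without PBS replicate 1, the difference shrank to -0.67 (adjusted p = 0.318 in limma), with the PBS group then at 1 sample whose spread is assumed to be like that of the other group.

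**Figure D1:**
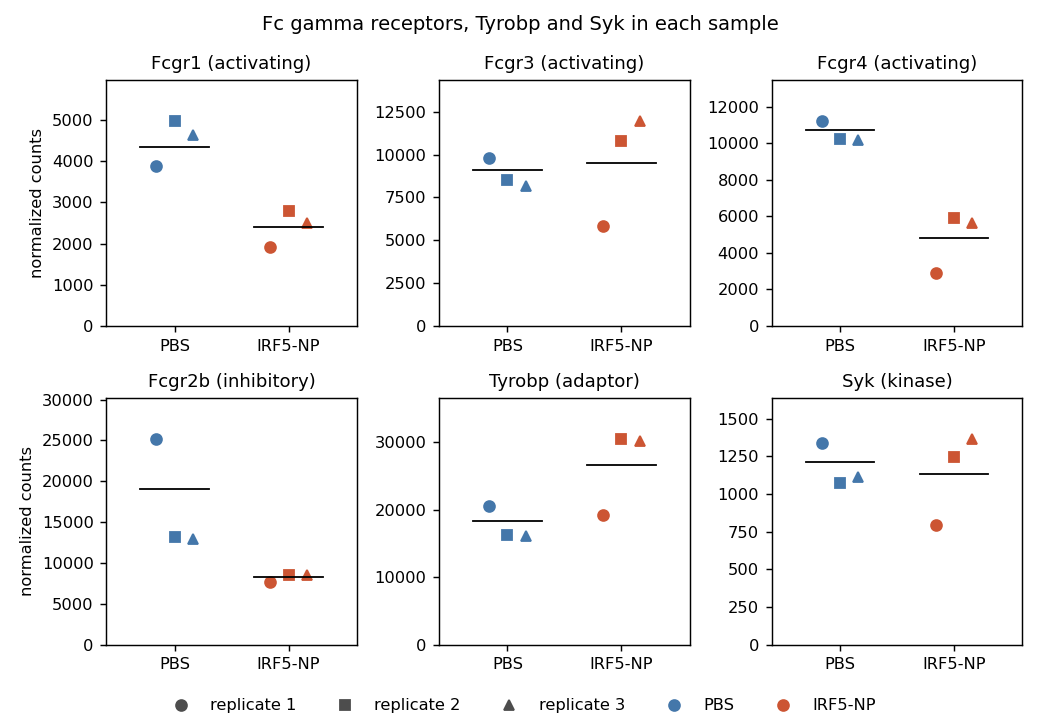
Normalized counts (vertical axis, linear, from 0) of the 6 genes in each PBS and IRF5-NP sample, with the marker shape giving the replicate number and the black line the group mean, in which PBS replicates 2 and 3 count once. Fcgr1, Fcgr4 and Fcgr2b show no overlap between the groups, whereas IRF5-NP replicate 1 lies below the other IRF5-NP samples for Fcgr3, Tyrobp and Syk.

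Tyrobp and Syk did not follow the 3 lower receptors. Tyrobp was at 20597, 16209.55 and 16179 normalized counts in PBS replicates 1, 2 and 3, and at 19292, 30469 and 30277 in IRF5-NP replicates 1, 2 and 3. Only IRF5-NP replicate 1 fell inside the PBS range, and the other IRF5-NP samples were above it. The log2 fold change was 0.52 (SE 0.34, 95% interval -0.28 to 1.31, adjusted p = 0.425 in limma).

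Syk, the kinase that both adaptors recruit, was at 1338, 1073 and 1117 normalized counts in PBS replicates 1, 2 and 3, and at 795, 1245 and 1364 in IRF5-NP replicates 1, 2 and 3. IRF5-NP replicate 1 was again the lowest sample, and the other IRF5-NP samples were close to the PBS samples. The log2 fold change was -0.13 (SE 0.28, 95% interval -0.77 to 0.51, adjusted p = 0.820 in limma), and its sign turned when the samples were brought to a common median (0.03) or quantile-normalized (0.12).

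Of the 6 genes, 0 passed the adjusted threshold in limma, beside 72 of 754 panel genes (9.55%). At an unadjusted p below 0.05 there were 3 of 6 genes, Fcgr1, Fcgr4 and Fcgr2b, against 25.3% of the panel in either direction and 15.6% in the lower direction. The methods' t-test, run on the 5 counted samples, called 0 of the 6 genes after adjustment (0% of the panel). At an unadjusted p below 0.05 it called 1 (16.6% of the panel). It was not run with 6 separate samples. The same 3 genes had every IRF5-NP sample below every PBS sample, as did 20.4% of panel genes. With PBS replicates 2 and 3 entered as separate samples, Fcgr1 (adjusted p = 0.0182) and Fcgr4 (adjusted p = 0.0259) passed in limma, but so did 16% of the panel, and this fit counts nearly identical samples as independent. Ordered from the lowest log2 fold change of 754 genes, Fcgr4 was 64th, Fcgr2b 69th, Fcgr1 101st, Syk 318th, Fcgr3 395th and Tyrobp 630th. In bulk samples, fewer cells of a type and less RNA per cell cannot be told apart.

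Differences by replicate number varied more for some genes than for others. A pairing by number was not established, so samples of the same number are set side by side as a description only. Comparing samples of the same number, IRF5-NP minus PBS on the log2 scale, Fcgr1 differed by -1.02, -0.83 and -0.89 for numbers 1, 2 and 3. Fcgr4 differed by -1.94, -0.79 and -0.85, and Fcgr2b by -1.72, -0.62 and -0.61. By this comparison Fcgr1 was the most even of the 3 genes. Numbers 2 and 3 gave nearly the same difference for each of them, where PBS replicates 2 and 3 count as 1 sample. Fcgr3 differed by -0.75, 0.33 and 0.55, Syk by -0.75, 0.21 and 0.29, and Tyrobp by -0.09, 0.91 and 0.90. All 6 genes were lower in IRF5-NP replicate 1 than in the mean of the other IRF5-NP samples, by amounts from -0.98 for Fcgr4 and -0.96 for Fcgr3 to -0.16 for Fcgr2b. The macrophage marker sum was lower there too, at 61367 against 120792 and 116490 in IRF5-NP replicates 2 and 3. The neutrophil marker sum went the other way, at 2666 against 1668 and 2014. The share of all panel genes that were lower in IRF5-NP replicate 1 was not counted, so the drop is not particular to these genes.

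**Figure D2:**
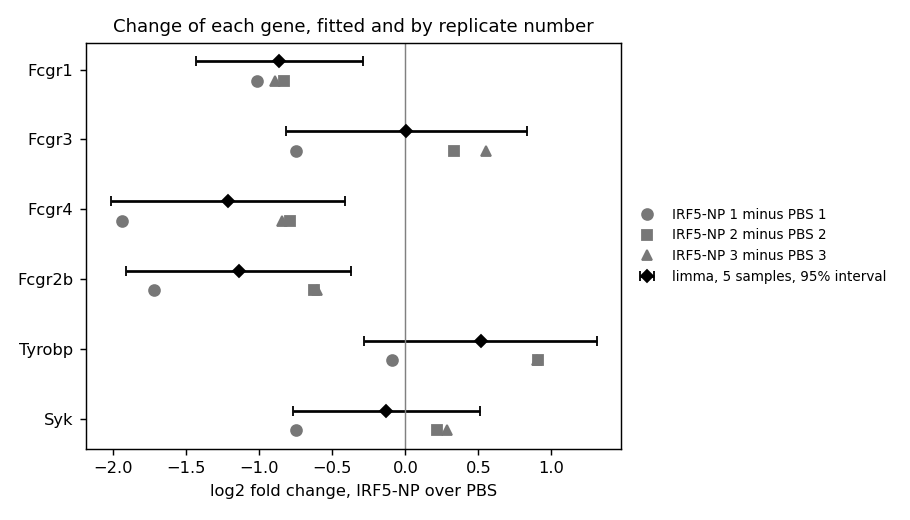
Log2 fold change of IRF5-NP over PBS (horizontal axis) for each gene, with the limma estimate and its 95% interval (black diamonds). Grey symbols give the difference between samples of the same replicate number, which are not established pairs. The intervals of Fcgr1, Fcgr4 and Fcgr2b lie below 0 before adjustment for the number of genes, and number 1 gives the lowest difference for every gene.

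Ratios between the genes within 1 sample do not depend on the scaling between samples. They are given as values with their spread, and no test was run on them. Only the ratios of the activating receptors over Fcgr2b were planned beforehand. Of the 15 possible ratios, 11 did not overlap between the groups, but the same was true of 52.4% of all gene pairs among the 482 genes above background in every sample, and the 15 ratios share genes. The level of a ratio depends on the probes, so only its shift between groups is read.

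The activating receptors Fcgr3 and Fcgr4, neighbours on the chromosome, differed in how they changed between the groups. The log2 ratio of Fcgr3 over Fcgr4 was -0.20, -0.26 and -0.32 in PBS replicates 1, 2 and 3, and 0.99, 0.86 and 1.09 in IRF5-NP replicates 1, 2 and 3. The shift was 1.22, with SDs of 0.07 with PBS (n = 2) and 0.11 with IRF5-NPs (n = 3). The PBS SD rests on 2 values, 1 of them the mean of PBS replicates 2 and 3. IRF5-NP replicate 1, which stood apart in the levels of both genes, did not stand apart in their ratio. Fcgr1 over Fcgr3 shifted the other way, by -0.87, also without overlap, while Fcgr1 over Fcgr4 differed by 0.35 with overlap.

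Set against the inhibitory receptor, the 3 activating receptors behaved differently. Fcgr3 over Fcgr2b was -1.36, -0.62 and -0.67 in PBS replicates 1, 2 and 3 and -0.39, 0.34 and 0.49 in IRF5-NP replicates 1, 2 and 3, higher in every IRF5-NP sample with a shift of 1.15. The replicates numbered 1 were the lowest of their group here. Fcgr4 over Fcgr2b shifted by -0.07, between -0.76 ± 0.57 (SD, n = 2) and -0.83 ± 0.47 (SD, n = 3), and Fcgr1 over Fcgr2b by 0.28, between -2.07 ± 0.89 (SD, n = 2) and -1.79 ± 0.19 (SD, n = 3). Both of these shifts were smaller than the SD with PBS, and both changed sign when 1 sample was left out, to 0.20 for Fcgr4 without IRF5-NP replicate 1 and to -0.35 for Fcgr1 without PBS replicate 1. A common shift of all activating receptors against the inhibitory one was thus not seen in these samples.

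Against Tyrobp and Syk, the 3 lower receptors had lower ratios in every IRF5-NP sample than in any PBS sample. These receptors were grouped by their own lower levels, so the ratios largely restate those levels and give no separate support. Fcgr4 over Tyrobp was -0.87, -0.66 and -0.67 in PBS replicates 1, 2 and 3 and -2.72, -2.36 and -2.42 in IRF5-NP replicates 1, 2 and 3, the largest shift of the 15 at -1.73. Fcgr2b over Tyrobp shifted by -1.66 and Fcgr1 over Tyrobp by -1.38, and over Syk the shifts were -1.09 for Fcgr4, -1.01 for Fcgr2b and -0.73 for Fcgr1. Fcgr3 kept close to Syk, with a shift of 0.14 and overlapping groups, and was lower against Tyrobp by -0.51 without overlap. Tyrobp over Syk was 3.94, 3.92 and 3.86 with PBS and 4.60, 4.61 and 4.47 with IRF5-NPs, a shift of 0.65 with SDs of 0.04 (n = 2) and 0.08 (n = 3). The levels of Tyrobp itself overlapped between the groups, and its ratio to Syk did not.

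**Figure D3:**
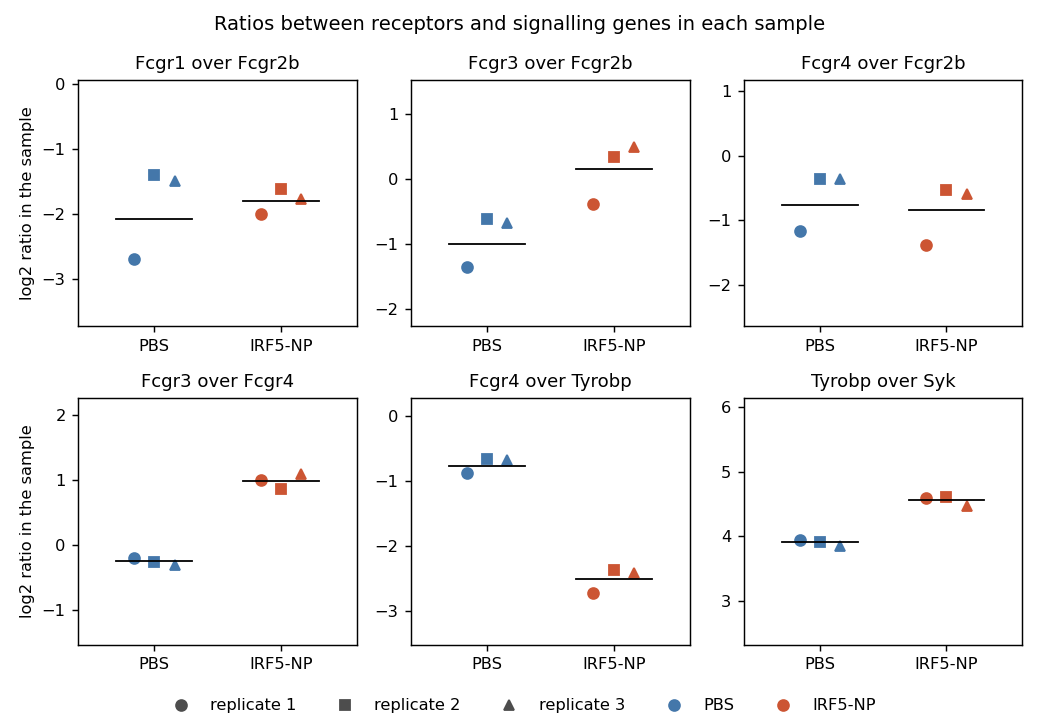
Log2 ratio of 2 genes within each sample (vertical axis, the same span in each panel) for PBS and IRF5-NP samples, with the marker shape giving the replicate number and the black line the group mean, in which PBS replicates 2 and 3 count once. Fcgr3 over Fcgr4 and Tyrobp over Syk separate the groups with little spread, whereas Fcgr1 and Fcgr4 over Fcgr2b overlap.

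The other panel genes with patterns closest to each receptor were found by the root mean square (RMS) difference of their centred log2 values over the 5 samples, among 482 genes above background in every sample, and they are a description with no test. Fcgr1 was closest to Cd1d1, which presents lipids to NKT cells (RMS 0.0879), the protease gene Furin (0.126) and the costimulatory ligand gene Icosl (0.130), against a median of 0.528 over the panel. Fcgr4 was closest to Acod1, the itaconate-producing enzyme (0.126), the chemokine gene Cxcl16 (0.199) and Havcr2, which encodes TIM-3 (0.219), against a median of 0.716. Fcgr2b was closest to the adhesion molecule gene Vcam1 (0.05), the signalling ligase gene Traf6 (0.0776) and the lipase gene Aoah (0.0870), against a median of 0.657. For Fcgr3 the closest were Alox5ap, needed for leukotriene synthesis (0.0935), the macrophage marker Cd68 (0.103) and Syk (0.116), against a median of 0.438. The nearest genes were different for each receptor. Fcgr3 differed from its fellow receptors by 0.504 for Fcgr1, 0.604 for Fcgr4 and 0.675 for Fcgr2b, and from Syk by far less.

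The remaining genes of the Fc receptor pathway were read from a list of 186 genes by role, of which 40 were on the panel. In limma with adjustment over all genes, 1 of them rose, 0 fell and 39 did not pass, with 6 at an unadjusted p below 0.05 (25.3% of the panel, as above), and the methods' t-test called 0 after adjustment. Their median log2 fold change was -0.09, beside -0.03 over all 754 genes, of which 19 rose and 53 fell. Lat, Oscar, Cd209e and Fcer2a were below background in every sample. The gene that rose was Ceacam1, a receptor with inhibitory motifs like that of Fcgr2b, from 360 ± 19.5 (SD, n = 2) to 904 ± 202 (SD, n = 3) normalized counts (log2 fold change 1.30, adjusted p = 0.017). Every IRF5-NP sample was above every PBS sample for Ceacam1, the reverse of Fcgr2b. Leaving out PBS replicate 1 or either of IRF5-NP replicates 2 and 3 took the count of 1 to 0, leaving out PBS replicate 2 took it to 2, and leaving out IRF5-NP replicate 1 took it to 4.

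Upstream of Syk, the Src family kinase genes Fyn (0.09, adjusted p = 0.847) and Yes1 (0.37, adjusted p = 0.422) did not pass. Of the 14 adaptors and enzymes that act after Syk, 0 passed in limma and 2 were below an unadjusted p of 0.05, no more than the panel's share. These were Vav1, an exchange factor that acts in phagocytosis (-0.73, adjusted p = 0.051), and Prkca, a protein kinase C (0.76, adjusted p = 0.07), both named after their values were seen. The most abundant of this list, Lat2 (-0.05) and Map2k1 (-0.21), were not called (adjusted p 0.927 and 0.594). The phosphatase gene Ptprc, which encodes CD45, was at -0.20 (adjusted p = 0.637).

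Among 5 genes of actin and engulfment, Rhog and Vasp were the most abundant, with log2 fold changes of -0.18 and -0.10 (adjusted p 0.764 and 0.809). The NADPH oxidase makes superoxide in the phagosome. Its membrane subunit gene Cybb was at 9823, 11530.5 and 11101 normalized counts in PBS replicates 1, 2 and 3 and at 10025, 23868 and 22186 in IRF5-NP replicates 1, 2 and 3. IRF5-NP replicate 1 was thus inside the PBS range and the others were far above it, as for Tyrobp, and the log2 fold change of 0.73 did not pass (adjusted p = 0.346).

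Of 10 other receptors that use Fcer1g or Tyrobp, 0 passed in limma and 2 were below an unadjusted p of 0.05, again within the panel's share. Itgam and Itgb2 encode the chains of the complement receptor CR3, a partner of the Fc gamma receptors in phagocytosis. Itgb2 was above all PBS samples in every IRF5-NP sample (1.15, adjusted p = 0.071), and Itgam, which encodes CD11b and so was used in the sort, overlapped (0.61, adjusted p = 0.473). The TREM receptors that signal through Tyrobp, named after their values were seen, did not share a direction, with Trem1 at 1.15 (adjusted p = 0.088) and Trem2 at -0.08 (adjusted p = 0.906).

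Cytokines and complement are known to set the levels of these receptors, with interferon-gamma raising the activating receptors and IL-4 raising Fcgr2b. Of 27 such signals and their receptors, 18 were on the panel, and 1 fell and 0 rose in limma, with 5 at an unadjusted p below 0.05, close to the panel's share of 25.3%. The cytokine genes Ifng, Il4 and Il13 were below background in every sample, so the sorted cells gave no measurable level of them. Tnf fell from 295 ± 49.1 (SD, n = 2) to 73.9 ± 26.6 (SD, n = 3) normalized counts (log2 fold change -2.03, adjusted p = 0.009). It was above background in 5 of 6 samples, with IRF5-NP replicate 3 at 65.0, below its background of 79.4. The most abundant genes of the list were C5ar1, the C5a receptor (-0.45, adjusted p = 0.382), and Csf1r, the CSF-1 receptor (0.03, adjusted p = 0.960). Named after their values were seen, Il4ra was at -1.03 (adjusted p = 0.0503) and Ifngr1 at -0.42 (adjusted p = 0.515).

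**Figure D4:**
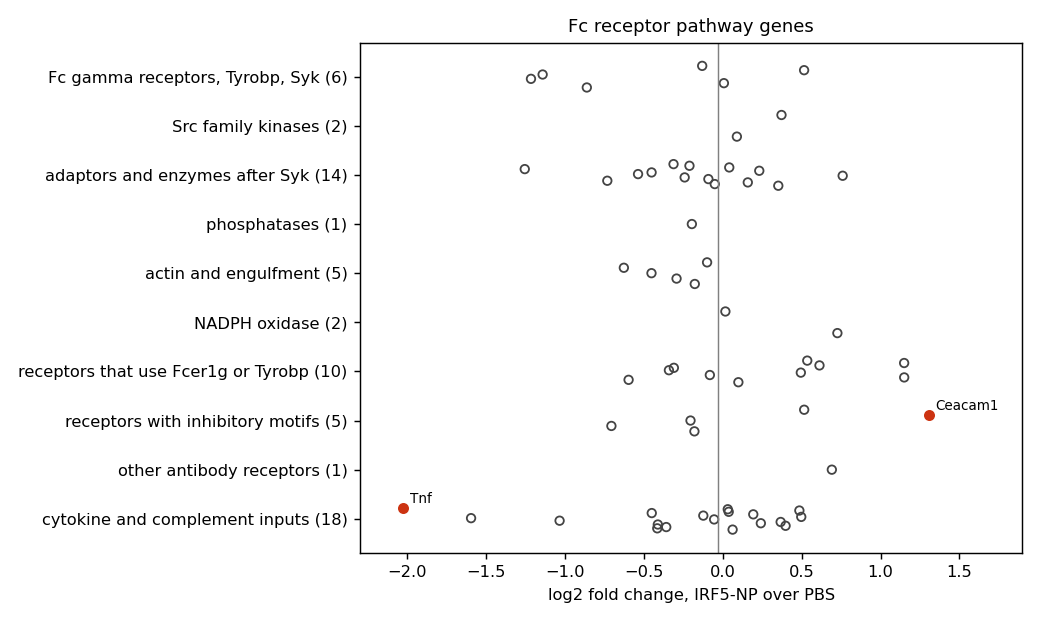
Log2 fold change of IRF5-NP over PBS (horizontal axis) for the 6 genes, the 40 other pathway genes by role and the 18 input signals, with the number of genes in brackets, filled red where limma's adjusted p was below 0.05, and the grey line at the median of all genes (-0.03). Ceacam1 and Tnf are the genes past the threshold.

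Other cell types that the sort could hold express these receptors too, and some of their markers differed between the groups. The summed level of 5 monocyte markers was 21967 to 30105 normalized counts with PBS and 5953 to 6475 with IRF5-NPs, and 1 of them, Chil3, fell. The sum of 5 resident peritoneal macrophage markers was 8104 to 18005 and 27364 to 49891, and 3 of them rose (Timd4, Selp and Cxcl13). Mertk fell among the macrophage markers, and the sum of 11 neutrophil markers was 2333 to 7292 and 1668 to 2666, with Csf3r higher and Mmp8 (above background in 4 of 6 samples) lower past the threshold and Mpo, Camp and Ctsg below background in every sample. The highest neutrophil sum, 7292, was that of PBS replicate 1, against 2385 and 2333 in PBS replicates 2 and 3. PBS replicate 1 also had the lowest resident macrophage sum, 8104, and the highest Fcgr2b. The part of these marker differences in the levels of Fcgr1, Fcgr4 and Fcgr2b was not tested.

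The markers of the remaining cell types had smaller sums. The sum of 6 dendritic cell markers was 389 to 433 with PBS and 178 to 231 with IRF5-NPs. Itgax (above background in 5 of 6 samples) was lower past the threshold, and Xcr1 was below background. The 8 mast cell or basophil markers summed to 267 to 389 and 656 to 1012, of which Hdc alone was at 143 to 242 and 415 to 865. Hdc and Cpa3 were higher past the threshold (Cpa3 above background in 2 of 6 samples), and the defining genes Ms4a2, Tpsb2 and Gata2 were below background. Kit, above background in 5 of 6 samples, went the other way. It was lower in every IRF5-NP sample than in any PBS sample (-0.70, adjusted p = 0.245 in limma). B cells carry Fcgr2b as their Fc gamma receptor, and of their 2 markers, Ms4a1 rose and Fcer2a was below background, with sums of 25.0 to 36.3 and 62.8 to 101, and Ms4a1 was above background in 2 of 6 samples. NK cells carry Fcgr3, and their 3 markers summed to 96.4 to 129 and 84.9 to 122, with Gzma and Nkg7 below background. Of 6 eosinophil markers, Ccr3, Prg2, Epx and Il5ra were below background, and the sums were 92.6 to 109 and 83.8 to 130. Cd28, the 1 T cell marker, was at 20.7 to 33.2 and 24.8 to 39.0, and Cdh1, the 1 tumor or mesothelial marker, fell (80.9 to 97.6 and 35.2 to 40.8, above background in 4 of 6 samples).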

How the data were processed

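RNA of sorted peritoneal macrophages, in 3 PBS and 3 IRF5-NP samples grouped by their labels, was measured with the NanoString nCounter assay. The deposited values are a signal, the normalized count on a linear scale, which the authors made by scaling each sample to its housekeeping genes' geometric mean, as the methods state for cultured macrophages. The table holds 754 genes, 8 negative and 6 positive controls. Dividing by 1 factor per sample (0.952 to 2.60) gave whole counts within 0.01 normalized counts for all genes, which were used for depth, background, counting error and the chi-square comparison of replicates. A second check of the steps did not accept the counts of the IRF5-NP samples, so no count test between the groups was run. The comparison used limma 3.58.1 under R 4.3.3 (lmFit, eBayes with a mean-variance trend, log2 of the value plus a pseudocount of 1, two-sided, Benjamini-Hochberg over all 754 genes, threshold 0.05). No gene was left out. The fit was tested on simulated data. Figures were drawn with matplotlib 3.10.9.

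The members and the gene lists were chosen with earlier results of these data known. Genes named beside the members are those of each list past the threshold and the 2 most abundant that did not pass, markers below background everywhere, and for each receptor the 3 genes with the most similar pattern. Any other gene is said to be chosen after its values were seen. Some genes that this rule covers are not reported here. Alternatives changed the pseudocount, the filter, the background, the scaling, the variance prior, the weights, the samples counted, the pairing, the test and the replicates.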

Additional observations from a re-analysis of the deposited data

How the results depend on the processing

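Over 18 alternatives, Fcgr1 was at -1.02 to -0.54 on the log2 scale, Fcgr4 at -1.40 to -0.89 and Fcgr2b at -1.17 to -0.67. They passed the adjusted threshold in 3, 5 and 1 of these alternatives, with adjusted p from 0.0119, 0.0186 and 0.0342 up to 1. Their direction did not change, but much of this was fixed beforehand. With no overlap between the groups, leaving out a sample could not turn it. Changing only the filter, the variance prior or the test left the fold change as it was. Tyrobp was at 0.40 to 0.73 and passed in 1 (adjusted p 0.0406 to 1). Fcgr3 and Syk passed in 0. Fcgr3 over Fcgr2b, also without overlap between the groups, kept its direction in each of its 10 alternatives (0.79 to 1.42).

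Of the 6 genes, 0 passed in limma, where 72 of 754 panel genes did. With quantile normalization 2 passed (Fcgr4 and Tyrobp), beside 75 panel genes. With array weights 1 passed (Fcgr2b), beside 125 panel genes, and with 6 separate samples 2 (Fcgr1 and Fcgr4), beside 121. With each replicate but PBS replicate 1 left out, 0 to 1 passed. The 1 was Fcgr4 without IRF5-NP replicate 1, beside 57 panel genes. Over the panel, 72 genes became 27 with the background subtracted, 41 without the mean-variance trend, 125 with array weights, 121 with 6 separate samples, 0 with the methods' t-test under either Benjamini-Hochberg or Benjamini-Yekutieli adjustment (125 at an unadjusted p below 0.05), and 21 to 83 with each replicate left out (35 when PBS replicate 1 was dropped, 41 when IRF5-NP replicate 2 was and 21 when IRF5-NP replicate 3 was). Of the 40 pathway genes, 1 became 2 with the filter on low values, 0 with the background subtracted, 2 with a common median, 3 with quantile normalization, 4 with array weights, 4 with 6 separate samples, 0 with the t-test under either adjustment, and 0 to 4 with each replicate left out.

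Samples with the same number correlated at 0.158, 0.178 and 0.0953 in their deviations over 482 genes, and PBS replicate 3 with IRF5-NP replicate 2 at 0.144, so a pairing by number was not established. The replicate block with 6 separate samples gave 135 panel genes, 2 of the 6 genes (Fcgr1 and Fcgr4) and 6 pathway genes. A block that sets the replicates numbered 1 apart, added after seeing the data, gave 133, 2 (Fcgr1 and Fcgr4) and 5, with Fcgr3 at -0.068.

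Differences near 0 changed sign. Fcgr3 was at -0.19 to 0.33 and Syk at -0.28 to 0.11 with each replicate left out, and Syk was at 0.031 with a common median, 0.12 with quantile normalization and 0.018 with array weights. Fcgr1 over Fcgr2b was at -0.35 to 0.38 and Fcgr4 over Fcgr2b at -0.48 to 0.20 with each replicate left out. A common median and quantile normalization moved the median of all genes by 0.16 and 0.17. The planned count tests were not run, since the inferred counts were not certain, and where calls changed the cause was not tested.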
